A study of Homo sapiens with 12 samples.

Results

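Of the 2249 long noncoding RNA genes in the expression table of SNU449 hepatocellular carcinoma cells, 62 had a mean normalized count of at least 100 over the 12 libraries, and these 62 well-expressed long noncoding RNAs are described here. They make up 2.76% of the long noncoding RNAs and stand among 15601 genes in all. The members were chosen by their mean count, so that their height is a description and only the differences between groups were tested. The choice is not free of these differences, because a member can pass through the groups in which it is high. Averaged over pairs of groups, 14 members had a mean count below 100 in at least 1 pair. The median mean count of the 62 was 195, against 4.33 for all long noncoding RNAs of the table. The members just inside the limit were ENSG00000262879 at 100.4 and ZNF232-AS1 at 100.2, and the long noncoding RNAs just outside it were SUCLG2-DT at 98.7 and ENSG00000272330 at 97.0.

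The study compared the parental human line SNU449, a mesenchymal-like liver cancer line, with SNU449-Axl- cells, in which the receptor tyrosine kinase Axl had been disrupted with CRISPR/Cas9. From each of these backgrounds, cells resistant to the multikinase inhibitor Regorafenib (Rego) had been raised by stepwise exposure up to 2 times the IC50. The 4 groups are control SNU449, Rego-resistant SNU449, control SNU449-Axl- and Rego-resistant SNU449-Axl- cells, with 3 libraries each. The libraries of a group are technical triplicates of 1 cell population, so that the p-values measure the spread between libraries, and the effect of Axl or of resistance cannot be told apart from other differences between the populations.

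Long noncoding RNAs are transcripts that are not translated into a long protein. Some act in the nucleus, such as MALAT1 in nuclear speckles and NEAT1 as the scaffold of paraspeckles. Others act in the cytoplasm, such as NORAD, which binds Pumilio proteins, and many snoRNA host genes serve mainly to carry small nucleolar RNAs in their introns, while the spliced host RNA is degraded during translation.

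The libraries were made by 3′ tag sequencing, in which reads come from the end of polyadenylated transcripts. The deposited library values are whole numbers on a variance-stabilized scale that was put back to a linear one after the preparation effect had been removed. They are called library values below and are not read counts. Genes with a mean count below 1 had a median library value of 22.5 and a highest value of 32, which is the floor of the scale. Over genes with a mean count between 100 and 250, a doubling of the count moved the library value by 0.848 on the log2 scale, so that fold changes of weakly expressed members are understated. The depth of each library is unknown. AXL itself stood at 727, 941 and 715 in control SNU449 and at 35, 53 and 33 in control SNU449-Axl- cells. In the Rego-resistant cells, AXL stood at 1237, 815 and 1271 with Axl and at 50, 38 and 52 without it. Of the marker lists, 7 of 7 mesenchymal markers had a mean count of at least 100, as had 2 of 6 epithelial, 1 of 10 hepatocyte, 0 of 3 endothelial and 0 of 3 leukocyte markers. The hepatocyte markers ALB, APOB, TTR and HNF4A were not listed in the table.

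To show the starts of the genes on which the results turn, the promoter stretches of the snoRNA host genes that changed are given first. Promoters were taken from RefSeq (GRCh38.p14), which held 43 of the 62 members. Translation of snoRNA host RNAs and of ribosomal protein mRNAs depends on a run of pyrimidines (C or T) at the transcript start. The capitals mark the longest run of C or T that touches the 10 bases on either side of the RefSeq start, which follows the first 20 bases of each 70-base stretch. The marked run need not lie in the transcript. In SNHG29 and SNHG7 it lies wholly before the RefSeq start, at positions −17 to −5 and −14 to −4 relative to it.
SNHG29 (chr17:16438967-16439036, plus strand): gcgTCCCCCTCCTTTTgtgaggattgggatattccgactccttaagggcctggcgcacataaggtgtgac
ZFAS1 (chr20:49278622-49278691, plus strand): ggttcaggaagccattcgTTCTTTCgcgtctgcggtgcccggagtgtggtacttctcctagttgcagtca
SNHG7 (chr9:136728135-136728204, minus strand): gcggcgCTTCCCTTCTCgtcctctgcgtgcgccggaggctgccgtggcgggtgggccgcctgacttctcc
EPB41L4A-AS1 (chr5:112160506-112160575, plus strand): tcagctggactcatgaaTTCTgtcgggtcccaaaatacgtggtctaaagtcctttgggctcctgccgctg
SNHG5 (chr6:85678684-85678753, minus strand): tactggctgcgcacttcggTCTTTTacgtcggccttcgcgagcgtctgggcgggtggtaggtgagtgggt
SNHG3 (chr1:28505923-28505992, plus strand): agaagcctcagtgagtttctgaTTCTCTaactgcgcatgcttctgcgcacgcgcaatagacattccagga
SNHG17 (chr20:38435279-38435348, minus strand): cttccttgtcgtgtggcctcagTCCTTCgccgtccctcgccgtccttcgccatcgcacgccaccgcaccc

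A run of at least 6 such bases was found in 11 of the 14 snoRNA host genes with a promoter (78.6%), in 8 of the 29 other members (27.6%) and in 31.9% of all 35116 promoters. The length of 6 was chosen after the sequences had been seen, and the shares are a description. They count runs near the RefSeq start, also those that end before it, and do not measure runs at the transcript start itself. For 28 of the 43 members the RefSeq start lay within 100 bp of the GENCODE start. Among the genes shown here and below, ZFAS1, SNHG29, SNHG5 and LUCAT1 differ more, with RefSeq starts 464, 220, 199 and 145 bp downstream.

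LUCAT1, in which the backgrounds differed the most in their response to Rego, is shown with its whole 300-base promoter, 250 bases before and 50 after the start, because it holds the 9 letters of an antioxidant response element. The sequence searched was TGACTCAGC on either strand, and the match, which lies on the minus strand of the promoter as printed and contains the AP-1 motif TGACTCA, is in capitals.
LUCAT1 (chr5:91314353-91314652, minus strand): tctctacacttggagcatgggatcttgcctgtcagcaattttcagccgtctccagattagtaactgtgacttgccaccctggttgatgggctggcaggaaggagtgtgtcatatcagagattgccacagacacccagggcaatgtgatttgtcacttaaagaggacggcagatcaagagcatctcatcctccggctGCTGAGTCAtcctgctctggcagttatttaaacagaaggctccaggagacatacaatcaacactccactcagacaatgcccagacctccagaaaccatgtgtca
The match begins 54 bases before the RefSeq start. That start lies 145 bp downstream of the GENCODE start, so that the match falls inside the gene as deposited. The 9 letters occurred in 0.561% of all promoters and in 1 of the 43 members, and the AP-1 letters in 4.95% of all promoters and in 2 members, LUCAT1 and CYTOR. A match is a description of the letters and does not show binding.

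Counts were concentrated in few members. MALAT1 had a mean count of 16202 and held 43.2% of the summed counts of the 62, which together held 0.831% of the counts of all genes. Above a mean count of 1000 stood 7 members, which are MALAT1, SNHG29, SNHG25, ZFAS1, SNHG16, NORAD and SNHG6. By name, 16 members were snoRNA host genes, 9 were named as antisense to a coding gene, 9 carried a LINC number, 1 was a microRNA host (FTX), 1 was divergent (PCCA-DT), 11 had another approved name and 15 had only an identifier. In the GENCODE 44 annotation of GRCh38, 24 overlapped a coding gene on the opposite strand, 8 overlapped one on the same strand and 13 started head to head within 1 kb of a coding start. Counting by strand is not given in the sources used here, and for members that overlap a coding gene the reads of both genes may be mixed.

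The levels varied more between the groups than those of other genes. The range of the 4 group means had a median of 0.744 on the log2 scale over the members, against 0.504 over the 5923 other genes with a mean count of at least 100. A range of at least 1 was reached by 16 members, and 18 stayed below 0.5. Control SNU449-Axl- cells were the lowest group for 24 members (38.7%, against 21.7% of the other genes), and Rego-resistant SNU449-Axl- cells were the highest for 26 (41.9%, against 20.9%). Control SNU449 was the lowest group for 14 members and Rego-resistant SNU449 for 18. These ranks may depend on the scaling and were not counted under another. The median change of the members with loss of Axl in control cells was −0.17. It was 0.03 with libraries centred on the spike-in RNAs and −0.20 after upper-quartile rescaling.

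**Figure D1:**
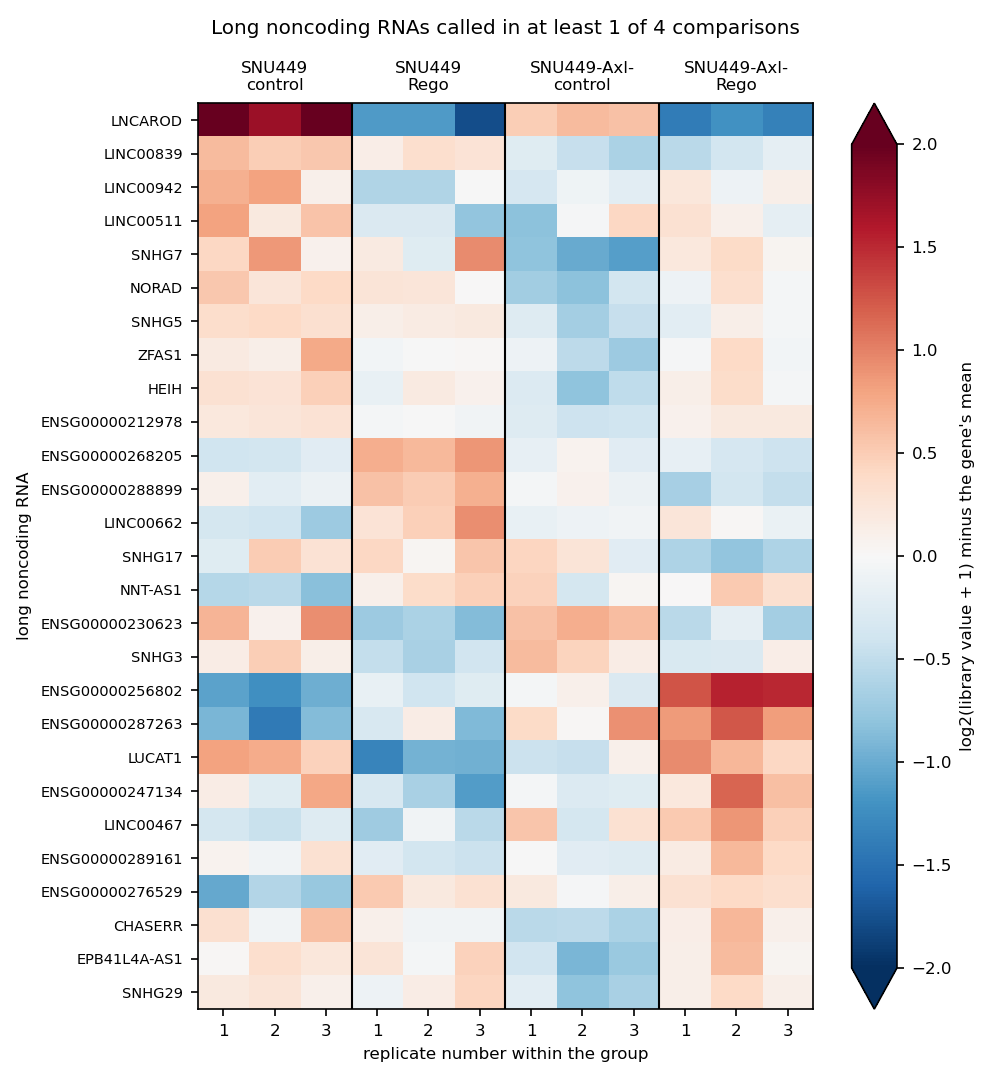
Heat map of the 27 long noncoding RNAs called in at least 1 of the 4 comparisons (rows) in the 12 libraries (columns, by group and replicate number); color gives log2(library value + 1) minus the mean of the gene, with the color scale ending at 2 in both directions. LNCAROD is highest in control SNU449 and lowest in both Rego-resistant groups, and SNHG7, NORAD, CHASERR and SNHG29 are lowest in control SNU449-Axl- cells.

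A member was called where its Benjamini-Hochberg adjusted p in limma, over all 15601 genes, was under 0.05. In 27 of the 62 members at least 1 of the 4 comparisons was called, and in 35 none was. The share of all genes called in at least 1 comparison is not given here, so that these counts have no background. Shares of all genes are given below for each comparison. The comparisons share groups, so that a member that is low in 1 group can be called in both comparisons that use it.

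With resistance to Rego in SNU449, 12 of the 62 members were called, 6 higher and 6 lower. Among all genes 7.81% were called, 4.31% higher and 3.5% lower, and among genes with a mean count of at least 100 it was 9.99%. In 27 members the libraries of the groups did not overlap, against 27.9% of all genes and 34.2% of genes with a mean count of at least 100. Without replicate 2 of Rego-resistant SNU449, 7 members were called. The median change of the members was −0.06 on the log2 scale. LNCAROD and LUCAT1 fell the most, and ENSG00000276529, ENSG00000268205 and LINC00662 rose the most.

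LNCAROD (ENSG00000231131.9, chr10:52450874-52755507, minus strand), named as an activating regulator of DKK1, stood at 315, 257 and 475 in control SNU449 and at 35, 35 and 22 in Rego-resistant SNU449. In SNU449-Axl- cells it stood at 110, 121 and 117 in control and at 29, 33 and 30 in Rego-resistant cells. The libraries of the Rego-resistant groups overlap each other, lie near the floor of the scale and stay far below those of either control group. The fall was 10.9-fold in SNU449 (log2 −3.45 ± 0.24 SE, adjusted p = 3.56e-08) and 3.7-fold in SNU449-Axl- cells (−1.89 ± 0.24, adjusted p = 0.00014), and both calls were kept in every alternative. Because both Rego-resistant groups are near the floor, these folds are understated. The difference of 0.03 on the log2 scale between the levels of the Rego-resistant groups cannot be resolved. On the authors' scale, the mean count of LNCAROD was 218 over both control groups and 4.95 over both Rego-resistant groups. LNCAROD thus passed the limit on the mean count through the control groups alone, and this choice favours a fall with resistance. DKK1, a secreted inhibitor of Wnt signaling on the same chromosome, was looked at after these values were seen. It stood at 1975, 2231 and 5884 in control and 1609, 1393 and 871 in Rego-resistant SNU449 (log2 −1.24 ± 0.39, adjusted p = 0.0573), which did not pass the threshold. In SNU449-Axl- cells DKK1 stood at 4643, 2740 and 4577 in control and 884, 1532 and 556 in Rego-resistant cells, where it fell (−2.09 ± 0.39, adjusted p = 0.00406).

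LUCAT1 (ENSG00000248323.8, chr5:91054834-91314547, minus strand), a long noncoding RNA known for induction by oxidative stress and for high levels in lung cancer, moved in opposite directions in the backgrounds. It stood at 340, 326 and 268 in control SNU449 and at 77, 101 and 99 in Rego-resistant SNU449. In SNU449-Axl- cells it stood at 144, 141 and 208 in control and at 377, 307 and 258 after resistance. None of the libraries of these pairs overlapped. The level of Rego-resistant SNU449-Axl- cells (8.28 ± 0.27, SD of log2 values) was close to that of control SNU449 (8.28 ± 0.18). With resistance LUCAT1 fell 3.35-fold in SNU449 (−1.75 ± 0.22, adjusted p = 4.82e-05) and rose 1.91-fold in SNU449-Axl- cells (0.94 ± 0.22, adjusted p = 0.0185). The fall in SNU449 was kept in every alternative, whereas the rise in SNU449-Axl- cells was lost when either replicate 1 or 2 of either group was left out, with an adjusted p of 0.145 without replicate 1 of the Rego-resistant SNU449-Axl- cells.

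ENSG00000230623 (chr1:200333193-200478669, plus strand), which overlaps ZNF281 on the opposite strand, stood at 195, 128 and 231 in control SNU449 and at 73, 78 and 66 in Rego-resistant SNU449. In SNU449-Axl- cells it stood at 182, 201 and 186 in control and at 83, 107 and 75 in Rego-resistant cells. The control groups overlapped and both resistant groups lay below them without overlap. The mean count of ENSG00000230623 was raised by the control groups, so that the choice by mean count may favour a fall with resistance. The fall was −1.30 ± 0.22 (adjusted p = 0.00106) in SNU449 and −1.11 ± 0.22 (adjusted p = 0.00736) in SNU449-Axl- cells. The latter was lost without replicate 3 of the Rego-resistant SNU449-Axl- cells (adjusted p = 0.0619), without replicate 2 of their control (0.0619) and without replicate 1 of the resistant cells (0.0535).

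LINC00511, an intergenic RNA studied in liver cancer, stood at 407, 267 and 345 in control and 191, 191 and 134 in Rego-resistant SNU449 (−0.98 ± 0.27, adjusted p = 0.0337). LINC00942 stood at 366, 391 and 240 in control and 148, 148 and 222 in Rego-resistant SNU449 (−0.94 ± 0.22, adjusted p = 0.0139). SNHG3, host of the box H/ACA snoRNAs SNORA73A and SNORA73B, fell from 250, 316 and 244 to 162, 144 and 173 (−0.75 ± 0.20, adjusted p = 0.0292). In these 3 the libraries of control and Rego-resistant SNU449 did not overlap. Each was lost in 4 or 5 of the 12 fits that leave out a library, with adjusted p of up to 0.195 for LINC00511 without replicate 3 of Rego-resistant SNU449, 0.108 for LINC00942 and 0.18 for SNHG3 without replicate 2 of control SNU449.

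Among the members that rose, ENSG00000276529 (chr21:44978832-44979274, plus strand), a short gene that starts within 5 kb after the end of SLX9, stood at 64, 87 and 77 in control SNU449 and at 190, 151 and 163 in Rego-resistant SNU449 (1.14 ± 0.19, adjusted p = 0.000812). LINC00662 stood at 124, 120 and 95 in control and 191, 220 and 303 in Rego-resistant SNU449 (1.05 ± 0.21, adjusted p = 0.00355). Both rises were kept in every alternative.

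ENSG00000268205 and ENSG00000288899 lie on the plus strand of chromosome 19 (chr19:57304305-57308562 and chr19:57297511-57298391), 5914 bp apart, in a cluster of zinc finger genes. ENSG00000268205 stood at 146, 150 and 164 in control SNU449, at 319, 303 and 356 in Rego-resistant SNU449, at 173, 202 and 164 in control SNU449-Axl- and at 172, 152 and 144 in Rego-resistant SNU449-Axl- cells. Rego-resistant SNU449 cells were thus above the 9 other libraries. ENSG00000288899 stood at 175, 140 and 150, at 246, 232 and 266, at 159, 173 and 150 and at 103, 126 and 117 in the same order of groups. With resistance in SNU449 the former rose by 1.08 ± 0.18 (adjusted p = 0.000885) and the latter by 0.68 ± 0.18 (adjusted p = 0.0283). The call of the latter was lost in 5 of the 12 fits that leave out a library, with an adjusted p of 0.145 without replicate 2 of control SNU449. The coding genes with the nearest start, ZNF543 and ZNF460 (which ends within 5 kb before ENSG00000288899 on the same strand), changed by 0.26 ± 0.23 (adjusted p = 0.566) and −0.02 ± 0.21 (adjusted p = 0.978).

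NNT-AS1 stood at 109, 112 and 91 in control SNU449 and at 175, 211 and 227 in Rego-resistant SNU449 (0.97 ± 0.23, adjusted p = 0.0117). Its start lies 538 bp from that of NNT, the mitochondrial transhydrogenase that makes NADPH, on the opposite strand. NNT stood at 113, 111 and 122 in control and 236, 249 and 200 in Rego-resistant SNU449 (0.97 ± 0.19, adjusted p = 0.00273). In control SNU449-Axl- cells NNT-AS1 stood at 226, 127 and 167 and NNT at 228, 194 and 194, above control SNU449 for both genes, with a change of 0.70 ± 0.23 (adjusted p = 0.0684) for NNT-AS1 and of 0.82 ± 0.19 (adjusted p = 0.0099) for NNT. ENSG00000287263, which was called higher with loss of Axl in control cells, lies 578254 bp from NNT-AS1 on chromosome 5. The rise of NNT-AS1 in SNU449 was lost without replicate 3 of control (adjusted p = 0.0611) and without replicate 2 (0.0562) or 3 (0.07) of Rego-resistant SNU449. The 300 bases around the start of NNT-AS1 are shown because they face NNT, with the CG dinucleotides in capitals.
NNT-AS1 (chr5:43603181-43603480, minus strand): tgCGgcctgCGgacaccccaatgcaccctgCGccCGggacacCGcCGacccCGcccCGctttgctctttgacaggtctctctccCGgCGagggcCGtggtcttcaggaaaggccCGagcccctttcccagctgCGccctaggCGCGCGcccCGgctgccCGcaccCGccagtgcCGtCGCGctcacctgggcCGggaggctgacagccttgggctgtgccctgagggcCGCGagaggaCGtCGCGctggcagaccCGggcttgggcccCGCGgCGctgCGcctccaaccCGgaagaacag
This stretch holds 34 CG sites, against a median of 14 over all promoters and of 25 over the snoRNA host genes.

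With resistance to Rego in SNU449-Axl- cells, 9 of the 62 members were called, 6 higher and 3 lower, against 4.35% of all genes (2.54% higher and 1.81% lower) and 5.91% of genes with a mean count of at least 100. In 29 members the libraries of the groups did not overlap, against 29.1% and 36.5% of these genes. The median change of the members was 0.23. SNHG7, EPB41L4A-AS1, SNHG29, LUCAT1, CHASERR and ENSG00000256802 rose, and LNCAROD, ENSG00000230623 and SNHG17 fell. When libraries were centred on the spike-in RNAs, 12 were higher and 2 lower, against 585 and 110 of all genes. After an upper-quartile rescaling the numbers were 7 and 2, against 414 and 261 of all genes. Centring on the spike-ins moved the median of all genes by 0.14 in this comparison, by 0.20 and 0.29 with Axl loss in control and in Rego-resistant cells, and by 0.05 with resistance in SNU449.

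ENSG00000256802 (chr15:29674932-29680957, plus strand), which carries the name LCIIAR in GENCODE 44, was the member called higher in each of the 4 comparisons. It stood at 70, 63 and 75 in control SNU449, at 134, 112 and 125 in Rego-resistant SNU449, at 145, 160 and 122 in control SNU449-Axl- and at 355, 432 and 423 in Rego-resistant SNU449-Axl- cells. Rego-resistant SNU449 and control SNU449-Axl- cells overlapped each other between the lowest and the highest group. In control SNU449 the member stood below ENSG00000262879 at the limit of 100, which had 110, 116 and 136 there. Its mean count was raised by Rego-resistant SNU449-Axl- cells, so that the choice by mean count may favour its rises into this group. With resistance it rose 1.77-fold in SNU449 (0.83 ± 0.19, adjusted p = 0.0103) and 2.83-fold in SNU449-Axl- cells (1.5 ± 0.19, adjusted p = 0.00014). With loss of Axl it rose 2.03-fold in control cells (1.02 ± 0.19, adjusted p = 0.0025) and 3.24-fold in Rego-resistant cells (1.70 ± 0.19, adjusted p = 3.01e-05). The rise in SNU449 was lost without replicate 2 of control (adjusted p = 0.0675) or replicate 1 of Rego-resistant SNU449 (0.0593), and the other 3 were kept in every alternative. The Rego effects of the backgrounds differed by −0.67 ± 0.27 (adjusted p = 0.158), which did not pass the threshold.

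**Figure D2:**
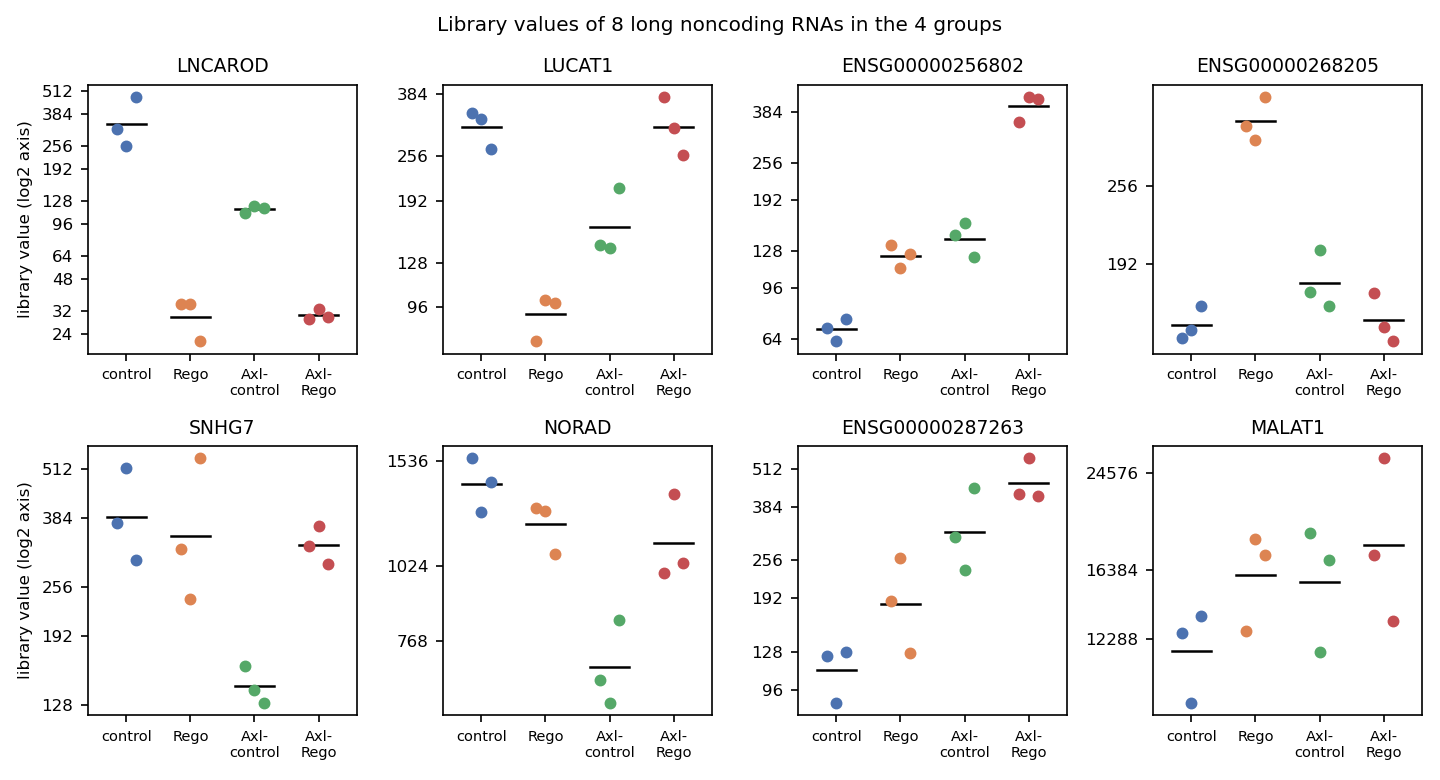
Library values (vertical axes, log2 scale) of 8 long noncoding RNAs in the 4 groups (horizontal axis; Axl- stands for SNU449-Axl- cells), with a point for each library and a line at the mean of the log2 values. LNCAROD is low in both Rego-resistant groups, LUCAT1 is lowest in Rego-resistant SNU449, ENSG00000256802 is highest in Rego-resistant SNU449-Axl- cells, and the groups of MALAT1 overlap.

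SNHG7, EPB41L4A-AS1, SNHG29 and CHASERR were low in control SNU449-Axl- cells and overlapped the SNU449 groups after resistance. SNHG7, host of SNORA17A and SNORA17B, stood at 161, 140 and 130 in control SNU449-Axl- cells and at 326, 366 and 293 in the resistant cells (1.19 ± 0.26, adjusted p = 0.0145). EPB41L4A-AS1, host of SNORA13, stood at 184, 127 and 144 and at 262, 374 and 251 (0.95 ± 0.22, adjusted p = 0.0168). SNHG29, host of SNORD49A, SNORD49B and SNORD65, stood at 2153, 1422 and 1593 and at 2697, 3281 and 2696 (0.76 ± 0.20, adjusted p = 0.0387). These 3 snoRNA host genes lay without overlap between the groups. CHASERR, a repressor of the neighbouring chromatin remodeler CHD2, stood at 140, 142 and 131 and at 223, 324 and 220 (0.87 ± 0.21, adjusted p = 0.0253). SNHG17, host of the SNORA71 family, moved the other way, from 324, 287 and 206 to 157, 139 and 156 (−0.83 ± 0.23, adjusted p = 0.0487).

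These calls depended on single libraries. Without replicate 2 of control SNU449-Axl- cells 2 members were called, and without replicate 1 or replicate 2 of Rego-resistant SNU449-Axl- cells 3 were. Without replicate 2 of the resistant cells the adjusted p was 0.119 for SNHG7, 0.17 for EPB41L4A-AS1, 0.218 for CHASERR and 0.232 for SNHG17, and without replicate 2 of their control it was 0.255 for SNHG29. SNHG17 was also lost after upper-quartile rescaling, with spike-in centring and with genes of a mean count of at least 50 alone.

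**Figure D3:**
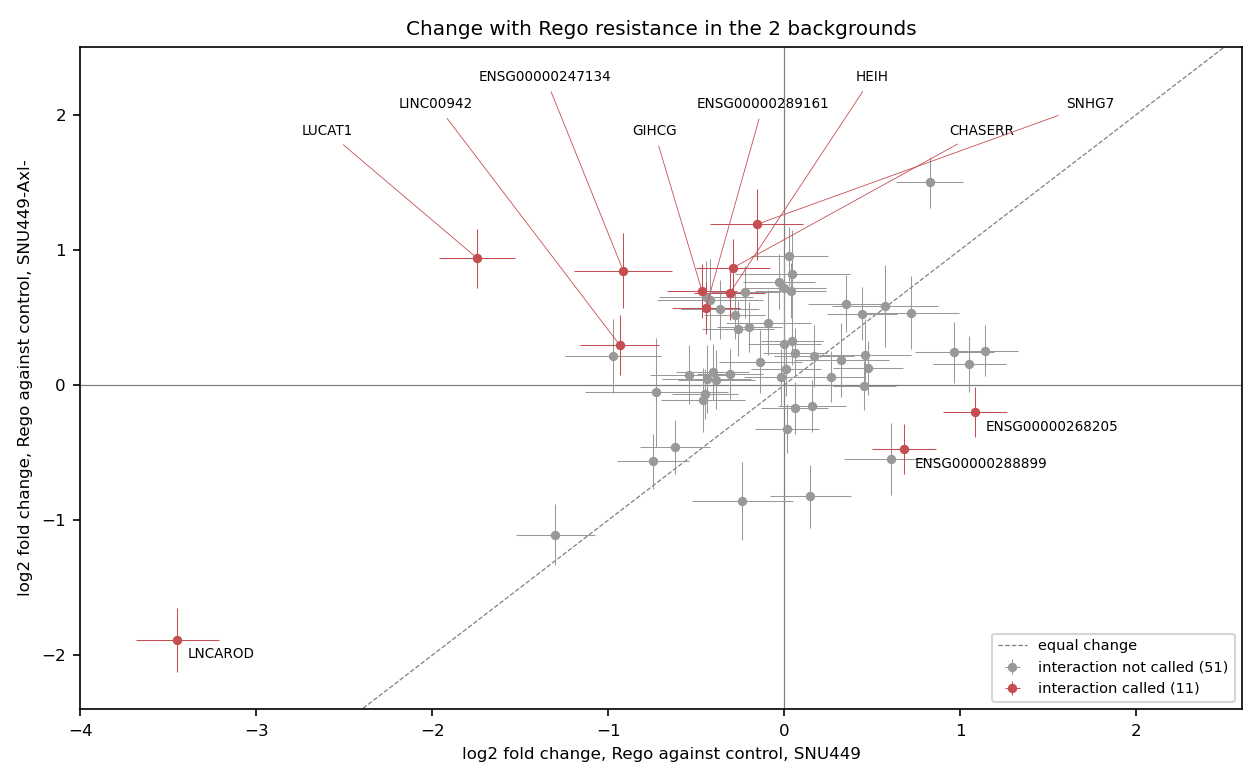
Change with Rego resistance in SNU449 (horizontal axis) and in SNU449-Axl- cells (vertical axis) for the 62 members, as log2 fold changes with standard errors; the dashed line marks equal change. The 11 members in which the difference between the backgrounds was called are in red, with 9 above the line and ENSG00000268205 and ENSG00000288899 below it.

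Whether resistance moved a gene differently with and without Axl was tested in the interaction term. It was called in 11 members, 9 with the more negative change in SNU449 and 2 with the more positive one (2.92% and 2.95% of all genes in these directions). Either direction was called in 5.87% of all genes and 8.17% of genes with a mean count of at least 100. The median difference was −0.37 over the members and −0.01 over all genes. The 9 are LUCAT1, ENSG00000247134, LNCAROD, SNHG7, LINC00942, GIHCG, CHASERR, ENSG00000289161 and HEIH. LUCAT1 differed the most (−2.68 ± 0.31, adjusted p = 3.82e-05). ENSG00000247134 stood at 220, 167 and 340 in control and 159, 127 and 91 in Rego-resistant SNU449, and at 194, 164 and 167 in control and 230, 448 and 301 in Rego-resistant SNU449-Axl- cells. The change of −0.92 ± 0.28 (adjusted p = 0.0519) in SNU449 and of 0.84 ± 0.28 (adjusted p = 0.0976) in SNU449-Axl- cells did not pass the threshold, but their difference of −1.76 ± 0.40 did (adjusted p = 0.0117). Without replicate 2 of Rego-resistant SNU449-Axl- cells its adjusted p was 0.0537. GIHCG, which takes its name from a rise during hepatocarcinogenesis, stood at 165, 128 and 185 and at 118, 115 and 108 in control and Rego-resistant SNU449. In SNU449-Axl- cells GIHCG stood at 109, 129 and 93 in control and at 164, 182 and 187 in Rego-resistant cells (difference −1.16 ± 0.28, adjusted p = 0.0184). For LNCAROD, whose Rego-resistant groups are both near the floor, the difference of −1.56 ± 0.33 (adjusted p = 0.00887) is close to that between the control groups of −1.53. The count of 11 fell to between 5 and 7 without replicate 1 of control SNU449, replicate 1 or 2 of Rego-resistant SNU449, replicate 2 of control SNU449-Axl- or any replicate of Rego-resistant SNU449-Axl- cells.

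With loss of Axl in control cells, 15 of the 62 members were called, 3 higher and 12 lower, against 7.45% of all genes (4.03% higher and 3.43% lower) and 10.3% of genes with a mean count of at least 100. In 24 members the libraries of the groups did not overlap, against 27.9% and 34.0% of these genes. The median change of the members was −0.17. SNHG7, NORAD, LINC00839, LUCAT1, EPB41L4A-AS1, HEIH, CHASERR, SNHG5, ZFAS1, SNHG29, ENSG00000212978 and LNCAROD fell, and ENSG00000287263, ENSG00000256802 and ENSG00000276529 rose. With libraries centred on the spike-in RNAs, 5 members were called higher and 5 lower, against 1257 and 231 of all genes. After upper-quartile rescaling the numbers were 3 and 13, against 582 and 589 of all genes.

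NORAD (ENSG00000260032.2, chr20:36045618-36051018, minus strand), which keeps Pumilio proteins from their targets and is required for chromosome stability, stood at 1550, 1263 and 1414 in control SNU449 and at 662, 606 and 833 in control SNU449-Axl- cells. In Rego-resistant cells it stood at 1280, 1268 and 1074 with Axl and at 998, 1349 and 1036 without it. Control SNU449-Axl- cells lay below the 9 other libraries. NORAD fell 2.02-fold with loss of Axl in control cells (−1.02 ± 0.20, adjusted p = 0.00329), which was kept in every alternative. EPB41L1, the coding gene with the nearest start at a distance of 40486 bp, fell by 1.23 ± 0.20 on the log2 scale (adjusted p = 0.000868).

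SNHG7 stood at 373, 514 and 300 in control SNU449 against 161, 140 and 130 in control SNU449-Axl- cells, without overlap, and fell 2.69-fold (−1.43 ± 0.26, adjusted p = 0.00248). LINC00839 stood at 186, 169 and 175 against 101, 87 and 77 (−1.0 ± 0.19, adjusted p = 0.00282). LNCAROD fell as well (−1.53 ± 0.24, adjusted p = 0.000582). These 3 calls were kept in every alternative.

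HEIH, named for high expression in hepatocellular carcinoma, stood at 161, 157 and 181 in control SNU449 against 108, 74 and 91 in control SNU449-Axl- cells (−0.88 ± 0.20, adjusted p = 0.011). SNHG5, host of SNORD50B, stood at 222, 231 and 218 against 146, 108 and 126 (−0.83 ± 0.18, adjusted p = 0.0093). ZFAS1, host of the SNORD12 family, stood at 1696, 1636 and 2540 against 1402, 1045 and 904 (−0.80 ± 0.22, adjusted p = 0.0316). In all 3 the libraries of the groups did not overlap. LUCAT1 (−0.93 ± 0.22, adjusted p = 0.0119), EPB41L4A-AS1 (−0.88 ± 0.22, adjusted p = 0.0176), CHASERR (−0.85 ± 0.21, adjusted p = 0.0185), SNHG29 (−0.74 ± 0.20, adjusted p = 0.033) and ENSG00000212978 (−0.60 ± 0.17, adjusted p = 0.0402) fell too. Without replicate 2 of control SNU449-Axl- cells, 9 members were called, and the adjusted p was 0.107 for HEIH, 0.0903 for SNHG5, 0.221 for SNHG29, 0.138 for EPB41L4A-AS1, 0.0963 for LUCAT1 and 0.162 for ENSG00000212978. Without replicate 3 of control SNU449 it was 0.162 for ZFAS1 and 0.105 for CHASERR.

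ENSG00000287263 (chr5:42983636-42993340, minus strand) stood at 124, 87 and 128 in control SNU449, at 188, 261 and 127 in Rego-resistant SNU449, at 305, 238 and 442 in control SNU449-Axl- and at 422, 555 and 417 in Rego-resistant SNU449-Axl- cells. With loss of Axl it rose 2.84-fold in control cells (1.5 ± 0.27, adjusted p = 0.00203), kept in every alternative, and 2.49-fold in Rego-resistant cells (1.32 ± 0.27, adjusted p = 0.00865), lost without replicate 3 of Rego-resistant SNU449 (0.0671) or replicate 2 of Rego-resistant SNU449-Axl- cells (0.0895). Its neighbour with the nearest coding start, ANXA2R, rose by 1.12 ± 0.28 in control cells (adjusted p = 0.0176). ENSG00000276529 stood at 64, 87 and 77 against 151, 130 and 142 (0.89 ± 0.19, adjusted p = 0.00657), with an adjusted p of 0.0553 without replicate 1 of control SNU449. In both members the libraries of the control groups did not overlap.

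With loss of Axl in Rego-resistant cells, 9 of the 62 members were called, 6 higher and 3 lower, against 4.37% of all genes (2.44% higher and 1.93% lower) and 5.8% of genes with a mean count of at least 100. The median change was 0.10, and in 30 members the libraries of the groups did not overlap, against 28.0% and 34.5% of these genes. With spike-in centring, 15 were higher and 2 lower, against 1731 and 68 of all genes. The excess of rises under this scaling was thus shared by all genes. LUCAT1 rose 3.36-fold (1.75 ± 0.22, adjusted p = 9.18e-05), from 77, 101 and 99 to 377, 307 and 258, and ENSG00000256802 rose 3.24-fold. ENSG00000268205 fell by 1.06 ± 0.18 (adjusted p = 0.00213) and ENSG00000288899 by 1.10 ± 0.18 (adjusted p = 0.00168). These 4 calls were kept in every alternative, with the caveat on the choice of ENSG00000256802 given above.

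ENSG00000247134 (1.35 ± 0.28, adjusted p = 0.00905), LINC00467 (1.07 ± 0.24, adjusted p = 0.0153) and ENSG00000289161 (0.74 ± 0.19, adjusted p = 0.034) were also higher in Rego-resistant SNU449-Axl- than in Rego-resistant SNU449 cells. LINC00467 stood at 90, 140 and 101 against 212, 274 and 206. SNHG17 stood at 321, 246 and 353 against 157, 139 and 156 and fell (−1.01 ± 0.23, adjusted p = 0.0171). Without replicate 2 of Rego-resistant SNU449-Axl- cells 4 members were called, and the adjusted p was 0.106 for ENSG00000247134, 0.131 for LINC00467, 0.225 for ENSG00000289161 and 0.114 for SNHG17. Without replicate 3 of Rego-resistant SNU449, 4 were called as well.

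The 16 snoRNA host genes were counted in each comparison. With loss of Axl in control cells 5 fell (SNHG7, EPB41L4A-AS1, SNHG5, ZFAS1 and SNHG29) and none rose, against 3.43% of all genes lower and 4.03% higher, with a median change of −0.24. With resistance in SNU449-Axl- cells 3 rose (SNHG7, EPB41L4A-AS1 and SNHG29) and 1 fell (SNHG17), against 2.54% of all genes higher and 1.81% lower, with a median of 0.24. Both comparisons contain the control SNU449-Axl- libraries. With resistance in SNU449, 1 fell (SNHG3), with a median of −0.18, and with loss of Axl in Rego-resistant cells 1 fell (SNHG17), with a median of 0.05. These single calls make 6.25% of the 16, against 7.81% and 4.37% of all genes called in either direction, and are no result about the host genes. The directions of the 5 falls were kept with spike-in centring, but the calls of SNHG29, ZFAS1, EPB41L4A-AS1 and SNHG5 were lost.

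Not all snoRNA host genes moved with these 5. SNHG16, host of the SNORD1 family, stood at 962, 1101 and 1252 in control SNU449 and at 1491, 1387 and 1188 in control SNU449-Axl- cells (0.30 ± 0.19, adjusted p = 0.406). SNHG25, a short host of SNORA50C and SNORD104, varied widely among the libraries of a group, with 4865, 1565 and 2338 in control SNU449-Axl- cells. Its change with loss of Axl was 0.74 ± 0.40 (adjusted p = 0.309) in control cells and 1.41 ± 0.40 (adjusted p = 0.0566) in Rego-resistant cells. GAS5, known for its rise when growth stops, stood at 308, 345 and 596 in control SNU449, 325, 446 and 480 in Rego-resistant SNU449, 633, 272 and 240 in control SNU449-Axl- and 547, 826 and 505 in Rego-resistant SNU449-Axl- cells, and was not called. SNHG6 (0.70 ± 0.20, adjusted p = 0.0568), SNHG8 (0.65 ± 0.27, adjusted p = 0.187) and SNHG19 (−0.86 ± 0.29, adjusted p = 0.101) did not pass the threshold with resistance in SNU449-Axl- cells. DANCR stood at 311, 375 and 377 in control and 260, 257 and 179 in Rego-resistant SNU449 (−0.62 ± 0.20, adjusted p = 0.0645). SNHG1 and SNHG14 were not called in any of the 4 comparisons.

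**Figure D4:**
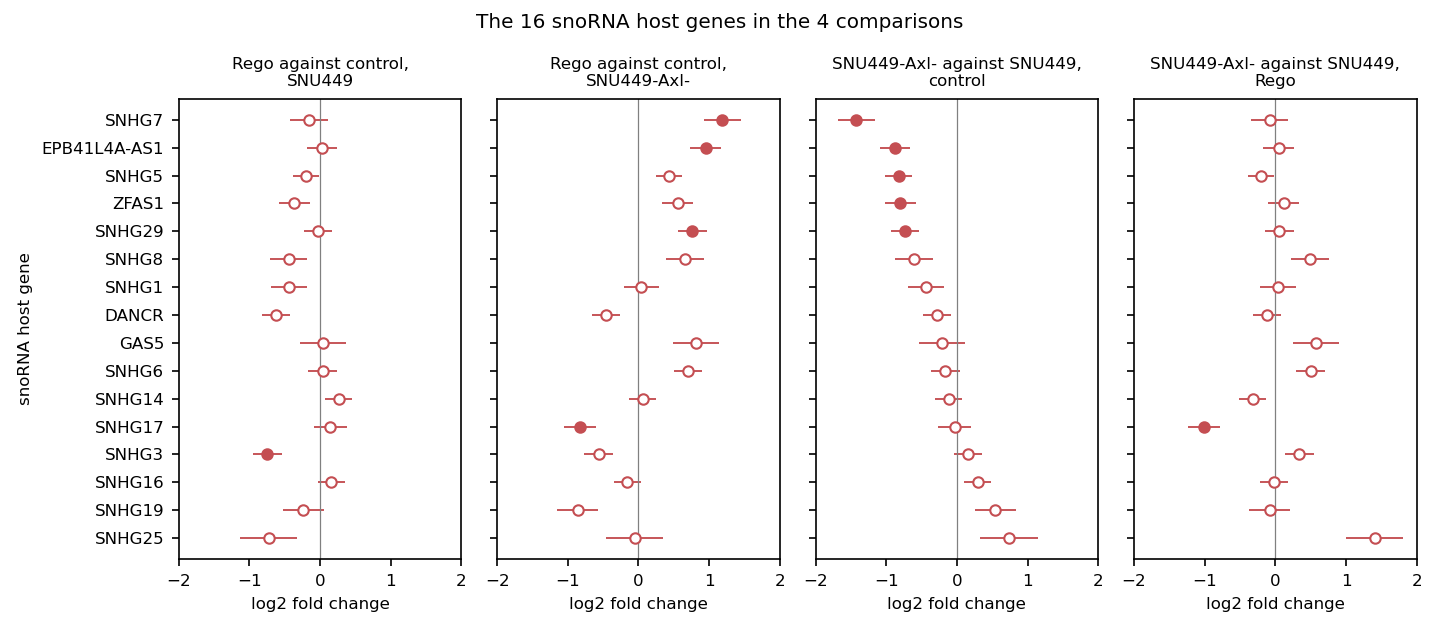
Log2 fold changes (horizontal axes) of the 16 snoRNA host genes (rows) in the 4 comparisons, with bars for the standard error; filled points have an adjusted p under 0.05. In the comparison of SNU449-Axl- with SNU449 control cells the 5 filled points lie between −1.43 and −0.74, and in the Rego-resistant cells these 5 genes lie between −0.20 and 0.12, with open points.

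Of the proteins that bind snoRNAs, NOP58 fell with resistance in SNU449 (−0.71 ± 0.19, adjusted p = 0.0247), and DKC1, the pseudouridine synthase of box H/ACA snoRNPs, rose with loss of Axl in control cells (0.74 ± 0.18, adjusted p = 0.015) and fell with resistance in SNU449-Axl- cells (−1.08 ± 0.18, adjusted p = 0.00181). The other 6 of these 8 core proteins were not called in any of the 4 comparisons. With resistance in SNU449, with resistance in SNU449-Axl- cells and with loss of Axl in control cells, 1 of 8 (12.5%) was called. Of all genes 7.81%, 4.35% and 7.45% were called in this order, so that these single calls are no result about the core proteins.

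The most abundant nuclear RNAs were not called. MALAT1 stood at 12594, 9400 and 13496 in control SNU449, 12696, 18661 and 17449 in Rego-resistant SNU449, 19080, 11602 and 17069 in control SNU449-Axl- and 17423, 26119 and 13224 in Rego-resistant SNU449-Axl- cells, and its groups overlapped in all 4 comparisons. NEAT1, which responds to p53 and to hypoxia, stood at 692, 592 and 801, at 546, 808 and 743, at 599, 349 and 412 and at 672, 912 and 621 in the same order of groups. The change of NEAT1 with resistance in SNU449-Axl- cells was 0.71 ± 0.23 (adjusted p = 0.0953) and with loss of Axl in control cells −0.64 ± 0.23 (adjusted p = 0.108). Of the 5 nuclear or chromatin-associated members, among them MALAT1, NEAT1 and CRNDE, 0 were called by limma in any of the 4 comparisons, and 1, 1, 2 and 1 had an unadjusted p under 0.05 with resistance in SNU449, with resistance in SNU449-Axl- cells, and with loss of Axl in control and in Rego-resistant cells. Of all genes, 21.3%, 18.6%, 21.5% and 18.2% had an unadjusted p under 0.05 in this order. Of the 10 members that are mainly cytoplasmic, 3 (NORAD, ZFAS1 and SNHG5) were called lower with loss of Axl in control cells, against 3.43% of all genes. ZFAS1 and SNHG5, like SNHG6, GAS5, SNHG8, DANCR and SNHG1 of this list, are snoRNA host genes already counted above, so that this is no separate pattern. All 10 had a negative change, as did 49.5% of all genes, but this rests on the scaling. With spike-in centring 8 were negative, OIP5-AS1 (0.17) and SNHG6 (0.04) were positive, GAS5 was at −0.002, and of the 3 calls that of NORAD was kept.

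Of 8 members on a list of RNAs studied in liver cancer, which is not complete and lacks HEIH and GIHCG, LINC00511 and LUCAT1 were called in at least 1 of the 4 comparisons, and CYTOR, DANCR, SNHG1, CRNDE, NEAT1 and MALAT1 were not. With resistance in SNU449, 2 of the 8 (25%) were called, against 7.81% of all genes. In each other comparison LUCAT1 alone was called (12.5%). Of all genes it was 4.35% with resistance in SNU449-Axl- cells, and 7.45% and 4.37% with loss of Axl in control and in Rego-resistant cells. Such small counts are no result about the list. HEIH was called with loss of Axl in control cells, and GIHCG in the interaction alone. CYTOR, which is raised in many tumors, stood at 358, 437 and 511 in control SNU449 and at 258, 389 and 302 in Rego-resistant SNU449 (−0.47 ± 0.24, adjusted p = 0.277). FTX, host of MIR374A, MIR374B and MIR421, changed by at most 0.29 in size in the 4 comparisons. DROSHA, which cuts microRNA precursors from their hosts, rose with resistance in SNU449 (0.77 ± 0.19, adjusted p = 0.0162) and with loss of Axl in control cells (0.99 ± 0.19, adjusted p = 0.00326). TNRC6C, which acts with Argonaute proteins, rose with resistance in SNU449 (0.93 ± 0.20, adjusted p = 0.0062) and fell with loss of Axl in Rego-resistant cells (−1.25 ± 0.20, adjusted p = 0.00111). The other 11 of these 13 microRNA processing proteins were not called. With resistance in SNU449, 2 of the 13 (15.4%) were called, against 7.81% of all genes. With loss of Axl 1 of the 13 (7.69%) was called in control cells and 1 in Rego-resistant cells, against 7.45% and 4.37% of all genes. Of 10 nonsense-mediated decay factors 0 were called by limma in any of the 4 comparisons, with 2, 1, 2 and 2 at an unadjusted p under 0.05 in the same order, beside the shares of all genes given above for this threshold. Of the 9 nuclear exosome genes in the table MPHOSPH6 was called, lower with loss of Axl in Rego-resistant cells (−0.81 ± 0.21, adjusted p = 0.0372). This is 1 of 9 (11.1%), against 4.37% of all genes, and is no result about these genes as a set.

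Members were then set beside coding genes chosen by name or position, some of which lie far away. For 15 members a coding gene gives the name or starts head to head within 1 kb, and the signs of the changes were the same in 8 of these 15 pairs with resistance in SNU449, 9 with resistance in SNU449-Axl- cells, 10 with loss of Axl in control cells and 12 with loss of Axl in Rego-resistant cells. For 34 others the coding gene with the nearest start was used, and the same sign was seen in 22, 26, 19 and 20 pairs. Pairs are not independent replicates, and no test was made. NNT-AS1 with NNT was the pair of the first kind in which both were called.

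SLX9, a ribosome biogenesis factor, rose with ENSG00000276529 in both comparisons in which the latter rose, by 0.83 ± 0.23 (adjusted p = 0.0353) with resistance in SNU449 and by 1.10 ± 0.23 (adjusted p = 0.00699) with loss of Axl in control cells. SLX9 stood at 102, 77 and 108 in control SNU449, 125, 195 and 199 in Rego-resistant SNU449, 267, 194 and 163 in control SNU449-Axl- and 186, 218 and 182 in Rego-resistant SNU449-Axl- cells. Since ENSG00000276529 lies just behind SLX9 on the same strand, reads from a longer 3′ end of SLX9 may be counted for it, which was not tested. LINC00839 and ZNF33B fell with loss of Axl in control cells (−1.0 and −0.88), as did EPB41L4A-AS1 and NREP (−0.88 and −0.69), at 163090 and 163062 bp between the starts. ENSG00000289161 and GSDMD, which overlap on opposite strands, rose with loss of Axl in Rego-resistant cells (0.74 and 0.82). LINC00511 fell and SLC39A11 rose with resistance in SNU449 (−0.98 and 0.96), at 452240 bp between the starts. CHD2, which CHASERR represses and overlaps, changed by −0.19 ± 0.20 (adjusted p = 0.656) with loss of Axl in control cells, where CHASERR fell, and by 0.17 ± 0.20 (adjusted p = 0.702) with resistance in SNU449-Axl- cells, where CHASERR rose.

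**Figure D5:**
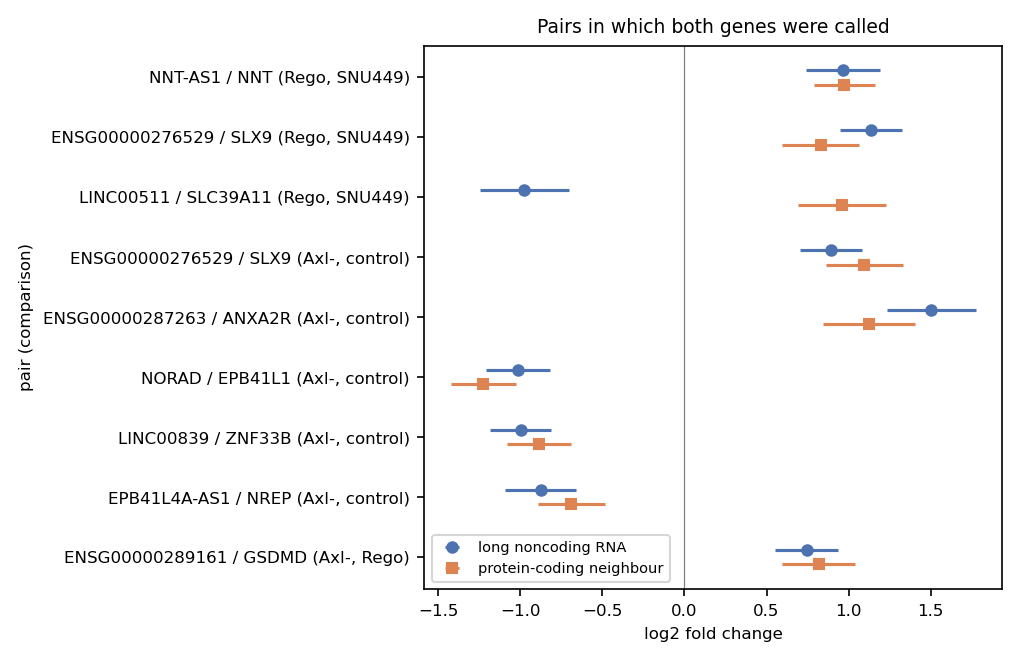
Log2 fold changes (horizontal axis) with standard errors of a long noncoding RNA (circles) and of the coding gene with the nearest start (squares) for the 9 pairs and comparisons in which both were called (rows, with the comparison in brackets). The points of a pair lie on the same side of 0 in 8 rows and on opposite sides for LINC00511 and SLC39A11.

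Of the 35 members that were not called, the range of the group means was smallest for KRT10-AS1 (0.223) and largest for SNHG25 (1.46). OIP5-AS1 was among the steady ones, with 329, 305 and 389 in control SNU449, 334, 358 and 370 in Rego-resistant SNU449, 361, 351 and 288 in control SNU449-Axl- and 393, 406 and 376 in Rego-resistant SNU449-Axl- cells. The mean count depends on the groups averaged. In the 6 tables of pairs of groups all 62 members were listed, 48 had a mean count of at least 100 in each table and 61 of at least 50, and the exception was LNCAROD.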

How the data were processed

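RNA of 12 libraries was sequenced by the QuantSeq 3′ mRNA protocol. The submitters' notes name cutadapt 4.0, STAR 2.5.3a and GENCODE 40, and the authors' model held the date of library preparation. The deposited library values were read as scores: the authors had stabilized the variance, taken out the effect of the date and returned the result to a linear scale in whole numbers. The mean normalized count is a signal that the authors had made by averaging counts divided by size factors over the libraries. Their fold changes and p-values were not used. Library values of the 12-library table that compares the backgrounds were fitted as log2(value + 1) with limma 3.58.1 in R 4.3.3 (eBayes with trend), with the group and the replicate number as a block. The date of each library is not given in the sources used here. That the removed effect follows the replicate number was inferred from the values, in which the median over all genes of the mean of a replicate number deviated by at most 0.00127, and the number of calls depends on this choice. All 15601 genes were tested without a filter, and 32 spike-in RNAs were left out. No 2 libraries were identical. The fit was checked on simulated data. Members, gene lists and tests were chosen with earlier results of these data known. The result of a further gene list is not reported here. Named are the 5 largest rises and falls among called members of each comparison, the 8 highest members, the snoRNA and microRNA hosts, the lists studied in liver cancer or responsive to p53 or hypoxia, 2 genes on either side of the limit, and up to 4 genes of each protein list. Others were chosen after their values were seen. Positions are those of GENCODE 40 on GRCh38, as deposited, and neighbours come from GENCODE 44. Sequences come from RefSeq.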

Additional observations from a re-analysis of the deposited data

Results flagged for a closer look

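In 11 members the effect of Rego resistance differed between the backgrounds in the interaction term, in which a negative value means a lower change in SNU449 than in SNU449-Axl- cells on the log2 scale. The difference was −2.68 for LUCAT1, −1.76 for ENSG00000247134, −1.56 for LNCAROD, −1.35 for SNHG7, −1.23 for LINC00942, −1.16 for GIHCG, −1.16 for CHASERR, −1.01 for ENSG00000289161 and −0.99 for HEIH. It was 1.28 for ENSG00000268205 and 1.16 for ENSG00000288899. Those of LUCAT1, LNCAROD and ENSG00000268205 were called in every alternative, and that of HEIH was called in 1 of the 12 fits that leave out a library. Both Rego-resistant groups of LNCAROD are near the floor, and its difference is close to that of −1.53 between the control groups. For LNCAROD the term therefore cannot show a response to Rego that differs between the backgrounds.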

How the results depend on the processing

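Of 56 calls of a member in a comparison or in the difference between the backgrounds, 21 were kept in every alternative, and none changed direction. In the fits that leave out 1 library, 516 of 672 calls were kept. The number of members called then ranged from 7 to 13 with resistance in SNU449, from 2 to 13 with resistance in SNU449-Axl- cells, from 9 to 16 with loss of Axl in control cells, from 4 to 10 with loss of Axl in Rego-resistant cells, and from 5 to 15 for the difference between the backgrounds. The lowest counts were those without replicate 2 of Rego-resistant SNU449 (7), replicate 2 of control SNU449-Axl- cells (2 and 9), replicate 3 of Rego-resistant SNU449 or replicate 2 of Rego-resistant SNU449-Axl- cells (4), and the latter again (5).

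Without the replicate block the counts in this order were 15, 19, 20, 14 and 21 in place of 12, 9, 15, 9 and 11, and all members called with the block were called. With spike-in centring 14 members were called with resistance in SNU449-Axl- cells and 17 with loss of Axl in Rego-resistant cells, and 11 of the 56 calls were lost. Of all genes, 585 were then called higher and 110 lower in the former comparison, and 1731 and 68 in the latter. In the table of the groups compared, 9 members were called with loss of Axl in control cells, and 9 of 45 calls were lost. A limit of 50 or 200 on the mean count would give 140 or 29 members. A minimum mean count of 50 and upper-quartile rescaling lost 1 call each. The alternatives of no pseudocount, the other 12-library table and no trend kept all 56 calls. The depth of the libraries is unknown, and members near the floor of the scale, such as LNCAROD after resistance, cannot be ranked.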
